A study of Mus musculus with 4 samples.

Results

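The genes described here encode the machinery of glycolysis, from glucose uptake to lactate export, together with genes known to respond to low oxygen. They were followed in skin melanocytes, which make pigment, from mice that lack the aryl hydrocarbon receptor (AhR) and from wild-type mice. The list names 36 genes, chosen by symbol for these functions. A gene was taken as measured where the platform annotation gave a probe set that symbol alone, control probe sets aside, and the probe set with the highest mean signal stood for it. This gave 30 of the 36 genes, out of 12393 measured in all. Gapdh and Bnip3l have only probe sets shared with other symbols or control probe sets, and Gpi1, Eno1, Pfkfb4 and Ankrd37 were not analysed here. Of the 30 genes, 28 were among the 7436 bright enough to test, and Slc16a3 and Pdk2 were too dim.

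The arrays held RNA of 2 AhR knockout mice (strain AhRtm1Bra, in which exon 2 of Ahr is deleted throughout the animal) and of 2 wild-type C57Bl/6 mice. All mice were female, with no age in the labels, and each array holds the cells of an individual mouse. Epidermal cells of tail skin from both genotypes were cultured without serum, in melanocyte medium, over 6 to 8 weeks. No group was given an AhR ligand or low oxygen according to the labels, so the comparison is of genotypes under standard culture. The question is whether transcripts of glycolysis and of the oxygen response differ when the receptor is missing.

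Glycolysis splits glucose into pyruvate and yields energy without oxygen. When oxygen is short, the transcription factor HIF-1, made of HIF-1 alpha and its partner ARNT, is stabilised and switches on glucose transporters, most glycolytic enzymes, lactate dehydrogenase A and a set of genes for vessel tone, collagen processing and mitochondrial removal. AhR uses the same partner, ARNT, and the DNA cores bound by both pairs are alike. HIF-1 and its partner bind ACGTG or GCGTG, and AhR with ARNT binds GCGTG.

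The promoters below belong to the 4 lower and the 3 higher genes with the smallest p-values among the members, and are shown so that the cores can be read beside the values that follow. Each is the 250 bases before the first listed start of the gene, 5′ to 3′ on the gene's strand, from RefSeq on GRCm38.p6. Capitals mark ACGTG and GCGTG on either strand, so that CACGT and CACGC are also in capitals. The windows are chr14:45318573-45318822 (minus strand) for Ero1l, chr2:71872974-71873223 (plus strand) for Pdk1, chr10:59323046-59323295 (plus strand) for P4ha1, chr7:110627407-110627656 (plus strand) for Adm, chr11:78322823-78323072 (plus strand) for Aldoc, chr6:142507958-142508207 (minus strand) for Ldhb and chr10:78009808-78010057 (minus strand) for Pfkl.
Ero1l: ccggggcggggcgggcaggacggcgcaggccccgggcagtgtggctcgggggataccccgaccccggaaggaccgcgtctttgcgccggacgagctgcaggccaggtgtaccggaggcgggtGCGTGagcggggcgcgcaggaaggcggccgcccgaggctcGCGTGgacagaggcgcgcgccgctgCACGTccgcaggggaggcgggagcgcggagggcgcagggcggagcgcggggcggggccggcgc
Pdk1: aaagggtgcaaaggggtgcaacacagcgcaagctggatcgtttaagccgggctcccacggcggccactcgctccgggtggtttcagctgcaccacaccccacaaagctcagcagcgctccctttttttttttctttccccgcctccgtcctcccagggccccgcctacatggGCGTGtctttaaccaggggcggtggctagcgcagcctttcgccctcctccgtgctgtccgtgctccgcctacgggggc
P4ha1: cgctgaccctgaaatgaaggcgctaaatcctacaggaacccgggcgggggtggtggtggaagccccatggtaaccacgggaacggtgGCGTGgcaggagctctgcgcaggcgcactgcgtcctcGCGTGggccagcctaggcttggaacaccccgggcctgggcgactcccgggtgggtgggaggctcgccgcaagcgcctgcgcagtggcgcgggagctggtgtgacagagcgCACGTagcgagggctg
Adm: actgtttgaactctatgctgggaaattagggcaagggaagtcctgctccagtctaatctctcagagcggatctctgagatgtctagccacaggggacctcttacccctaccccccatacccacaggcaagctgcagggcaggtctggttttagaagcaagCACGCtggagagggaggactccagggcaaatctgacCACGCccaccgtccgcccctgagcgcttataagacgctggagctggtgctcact
Aldoc: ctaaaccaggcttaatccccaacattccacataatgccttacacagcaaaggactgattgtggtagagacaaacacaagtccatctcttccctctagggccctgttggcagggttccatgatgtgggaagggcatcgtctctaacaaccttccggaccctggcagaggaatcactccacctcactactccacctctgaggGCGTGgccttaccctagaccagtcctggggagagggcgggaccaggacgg
Ldhb: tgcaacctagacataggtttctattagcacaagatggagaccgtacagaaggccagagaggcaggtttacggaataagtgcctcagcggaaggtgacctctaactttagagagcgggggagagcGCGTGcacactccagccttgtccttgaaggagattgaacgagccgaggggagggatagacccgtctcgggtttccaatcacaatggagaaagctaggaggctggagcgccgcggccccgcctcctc
Pfkl: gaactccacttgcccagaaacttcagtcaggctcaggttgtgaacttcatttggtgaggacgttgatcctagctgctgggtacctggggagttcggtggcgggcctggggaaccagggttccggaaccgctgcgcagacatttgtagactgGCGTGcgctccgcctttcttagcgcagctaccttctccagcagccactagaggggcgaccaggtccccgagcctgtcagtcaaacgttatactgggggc

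Each of these 7 windows holds GCGTG on one of the strands, while ACGTG is in those of Ero1l and P4ha1 only. RefSeq promoters were matched for 33 of the 36 genes, without Slc2a3, Bnip3l and Ndrg1. Of those 33 first windows, 18 hold ACGTG, which is 54.5%, against 16.6% of the first windows of 27025 genes in the table and 22.7% of 6103 tested genes. GCGTG is in 18 of the 33 as well, 54.5%, against 28.2% of all genes and 48.3% of tested genes. Among the oxygen-response genes outside glycolysis, ACGTG is in 7 of 8 first windows, and among the glycolytic enzymes in 5 of 17. Aldoa and Pkm have ACGTG before a later listed start, but not in the first window counted here. The palindrome CACGTG, which contains ACGTG and is also the core bound by the melanocyte factor MITF, is in 5 of the 33, or 15.2%, against 6.05% of all genes and 8.72% of tested genes. A match is a description of the letters in this window and says nothing of binding.

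Each array reported 22690 probe sets, with medians of 89.5 and 94.0 in AhR knockout and of 96.8 and 98.4 in wild type. The number of arrays limits the precision. Ahr itself read 241 and 843 in AhR knockout, against 825 and 874 in wild type, so AhR knockout 2 lay between the wild-type arrays. Where that probe set lies relative to exon 2 is not known here, and a probe set outside the deleted exon checks no label. In AhR knockout 2 the Gapdh control probe sets had a signal ratio of the 3′ over the 5′ end of 11.9, and the other arrays lay between 1.98 and 2.85. A high ratio goes with shortened RNA. All 9 measured melanocyte markers were bright, from 926 to 32201 (brightest Tyrp1, Dct and Pmel), and their summed signal was 98901 and 123898 in AhR knockout and 85483 and 66177 in wild type. Markers of blood vessel endothelium were present too. The 10 of them summed to 12553 and 5170 in AhR knockout and to 17907 and 20958 in wild type, with 9 of 10 lower, none at 0 and a median log2 difference of -1.81. The brightest were Emcn and Cdh5, at -2.21 and -1.94, and Cldn5, the exception, at 1.24. Keratinocyte markers (brightest Dsp, Krt6a and Krt14) summed to 1690 and 438 in AhR knockout and to 571 and 487 in wild type. Of these 9 genes, 6 read higher and 3 lower, at a median of 0.20. For fibroblast markers (Thy1, Col3a1 and Fbln2) the sums were 2623 and 1670 in AhR knockout and 2676 and 5089 in wild type. Of these 8 genes, 2 read higher and 6 lower, at a median of -0.92. Thy1, with overlapping groups, read 2181 and 1363 in AhR knockout and 1886 and 4063 in wild type. Leukocyte markers (Lyz2, Cd68 and C1qb) summed to 3698 and 3208 in AhR knockout and to 1630 and 1607 in wild type. Of these 8, 4 read higher and 4 lower, at a median of 0.19. Lyz2 alone read 2628 and 2776 in AhR knockout and 669 and 881 in wild type. In such mixed RNA, fewer cells of a type and less RNA per cell cannot be told apart.

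No gene of the list passed the test between genotypes. Differences were computed on log2(signal + 16), AhR knockout minus wild type, and tested with limma over all 7436 genes at a Benjamini-Hochberg adjusted p under 0.05. That threshold was passed by 0.955% of all tested genes, 0.202% upward and 0.753% downward, and by 0 of the 28 tested members, whose adjusted p ran from 0.10 to 0.91. An unadjusted p under 0.05 was reached by 3 members with a positive and 4 with a negative difference, 25.0% of the 28, against 20.6% of all tested genes (7.68% positive and 12.9% negative). The groups did not overlap for 14 of the 28 members, where the share over all tested genes was 55.4%. In these, the AhR knockout values were either all higher or all lower than the wild-type values. Differences were positive for 17 of the 28, against 50.3% of all tested genes. As a whole the list therefore sat near the background. The median difference of its tested members was 0.14, beside 0.01 for all tested genes. What follows is the pattern inside the list, given as measured values.

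**Figure D1:**
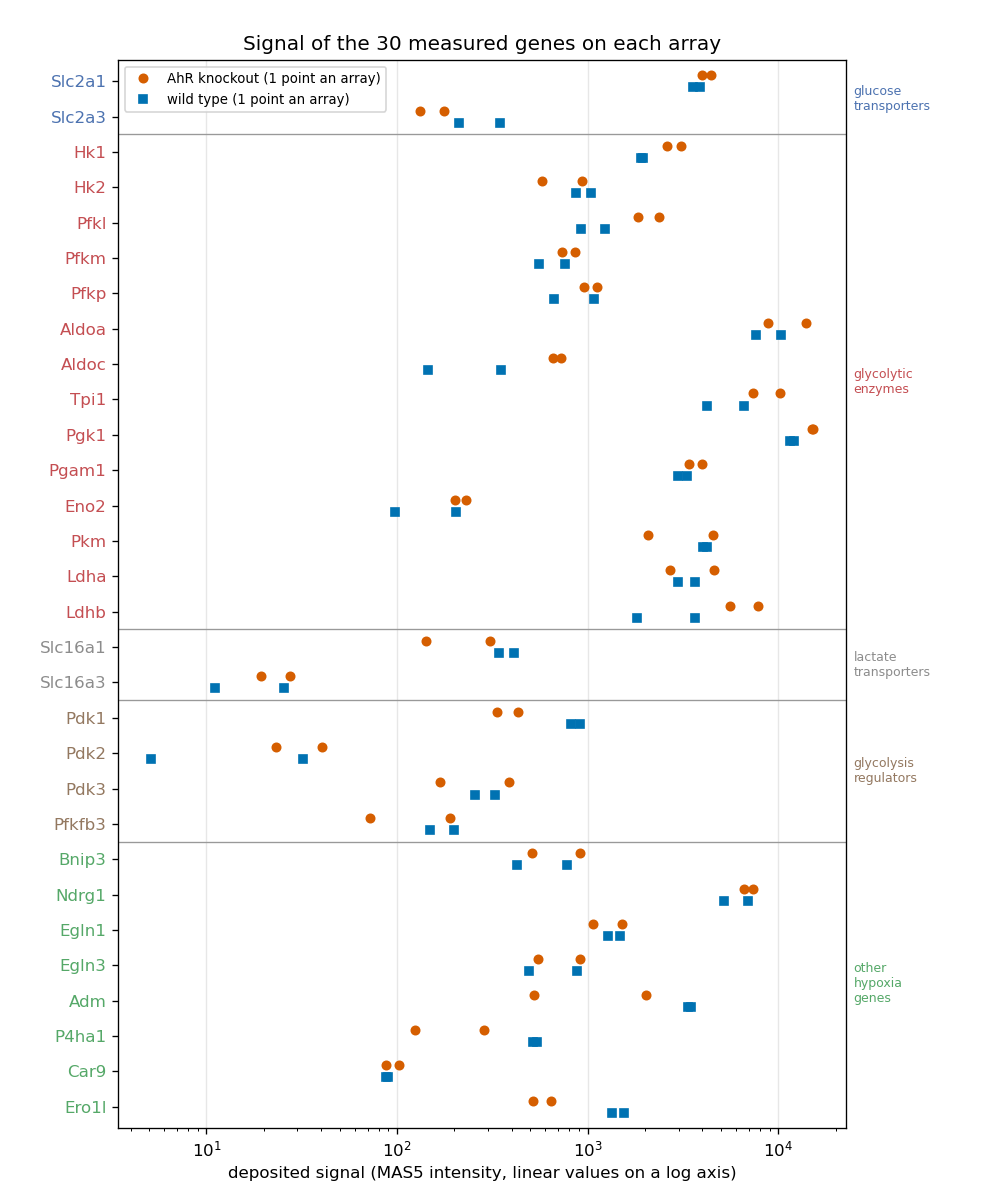
Deposited signal of the 30 measured genes on a logarithmic axis, with the 2 AhR knockout arrays as circles above the 2 wild-type arrays as squares in each row, grouped by role. Aldoc, Ldhb and Pfkl lie to the right in AhR knockout, and Ero1l, Pdk1, P4ha1 and Adm lie to the left.

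Glucose enters cells through facilitative transporters. Slc2a1, the widespread transporter GLUT1, read 3985 and 4424 in AhR knockout, against 3576 and 3899 in wild type. The groups did not overlap, but the difference was small, at log2 0.17 ± 0.31 (SE) with adjusted p = 0.77. The 2 dimmer Slc2a1 probe sets differed by -0.05 and -0.13. Slc2a3, the high-affinity transporter GLUT3, read 176 and 132 in AhR knockout, against 346 and 212 in wild type. Both AhR knockout arrays were below both wild-type arrays, with a log2 difference of -0.77 ± 0.39 and adjusted p = 0.29. The other Slc2a3 probe set above the filter differed by -0.52.

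Most glycolytic enzymes read higher in AhR knockout cells, none past the threshold. Of 14 tested, 12 had a positive difference and 2 a negative one, and 7 had both AhR knockout arrays above both wild-type arrays. The corresponding share over all tested genes was 28.7%. None of the 14 had both AhR knockout arrays below both wild-type arrays, where the share over all tested genes was 26.7%. Their median log2 difference was 0.34, against 0.01 for all tested genes. AhR knockout 1 alone gave a median of 0.46 and AhR knockout 2 alone 0.38, each set against the same wild-type mean. It depended more on the wild-type arrays, at 0.54 without wild type 1 and 0.20 without wild type 2. The enzymes were all read on the same arrays, so they are not independent readings. Melanocyte markers ran the same way, with 8 of 9 higher, a median of 0.56 and none at 0, and their part in the enzyme differences was not tested.

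Aldoc, the aldolase isoform typical of brain, had the largest difference of the enzymes. It read 660 and 723 in AhR knockout, against 351 and 146 in wild type. The AhR knockout arrays were close together and the wild-type arrays far apart. The group means were 691 ± 44.4 in AhR knockout and 249 ± 146 in wild type (SD, n = 2 each). The log2 difference was 1.54 ± 0.44, or 2.90-fold, with adjusted p = 0.11 by limma. It was 2.13 without wild type 1 and 0.94 without wild type 2. A dimmer Aldoc probe set, under the signal filter, differed by 1.09 the same way.

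Ldhb, the lactate dehydrogenase subunit that favours turning lactate back to pyruvate, came next. It read 5600 and 7806 in AhR knockout, against 3674 and 1823 in wild type. The groups did not overlap, and the log2 difference was 1.35 ± 0.39, or 2.54-fold, with adjusted p = 0.11. It was 1.85 without wild type 1 and 0.84 without wild type 2. All 4 Ldhb probe sets had this direction, with differences between 1.14 and 1.35. Ldha, the subunit that favours making lactate and a known HIF-1 target, read 4598 and 2702 in AhR knockout, against 3646 and 2973 in wild type. The groups overlapped, AhR knockout holding both the highest and the lowest array, and the log2 difference was 0.10 ± 0.36 with adjusted p = 0.89.

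Phosphofructokinase, which commits sugar to glycolysis, is built from 3 kinds of subunit. Pfkl, the liver-type subunit, read 2377 and 1831 in AhR knockout, against 1228 and 919 in wild type. The log2 difference was 0.96 ± 0.37, or 1.95-fold, with adjusted p = 0.19, and a dimmer probe set was nearly flat at 0.05. Pfkm, the muscle-type subunit, read 860 and 732 in AhR knockout, against 761 and 556 in wild type, a log2 difference of 0.28 ± 0.37. Pfkp, the platelet-type subunit, read 961 and 1119 in AhR knockout, against 1085 and 662 in wild type, a log2 difference of 0.28 ± 0.39. For both of these the groups overlapped. The values put none of the 3 subunits past the threshold, and the differences between the subunits were not tested.

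Tpi1, the isomerase that joins both products of aldolase into a single stream, read 10227 and 7336 in AhR knockout, against 6628 and 4232 in wild type. Its log2 difference was 0.71 ± 0.33 with adjusted p = 0.26, and its 3 probe sets lay between 0.68 and 0.83. Without wild type 2 the difference was 0.39. Aldoa, the main aldolase, read 13925 and 8791 in AhR knockout, against 10351 and 7607 in wild type. Those groups overlapped, since only AhR knockout 1 was above both wild-type arrays, and the log2 difference was 0.32 ± 0.31. The 4 Aldoa probe sets lay between 0.28 and 0.49. With quantile normalization the Aldoa difference was 0.06.

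Hexokinase traps glucose in the cell, and its isoforms pointed in opposite directions without passing. Hk1, the housekeeping form, read 2613 and 3106 in AhR knockout, against 1915 and 1954 in wild type, a log2 difference of 0.55 ± 0.33 with adjusted p = 0.37. The groups did not overlap for this probe set, but a dimmer Hk1 probe set differed by -0.32. Hk2, the inducible and HIF-responsive form, read 936 and 578 in AhR knockout, against 1045 and 869 in wild type. The groups overlapped, with a log2 difference of -0.37 ± 0.39.

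None of the later steps passed either. Pgk1, which makes the first ATP of the chain, read 14967 and 15237 in AhR knockout, against 11491 and 12132 in wild type, a log2 difference of 0.35 ± 0.23. The groups were apart for this probe set, while the other 2 Pgk1 probe sets were flat at -0.03 and -0.12. With quantile normalization the Pgk1 difference was 0.03, while the median of the enzymes was 0.41 in that setting. Pgam1, the phosphoglycerate mutase, read 3996 and 3387 in AhR knockout, against 2980 and 3308 in wild type, a log2 difference of 0.23 ± 0.32. Eno2, the neuronal enolase, read 230 and 201 in AhR knockout, against 203 and 97.4 in wild type, so its groups overlapped, with a log2 difference of 0.55 ± 0.41. Pkm, the pyruvate kinase that ends the chain, read 4549 and 2082 in AhR knockout, against 4209 and 4019 in wild type. For Pkm the difference was -0.42 ± 0.40, with AhR knockout 2 alone at -0.98 and AhR knockout 1 alone at 0.15.

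**Figure D2:**
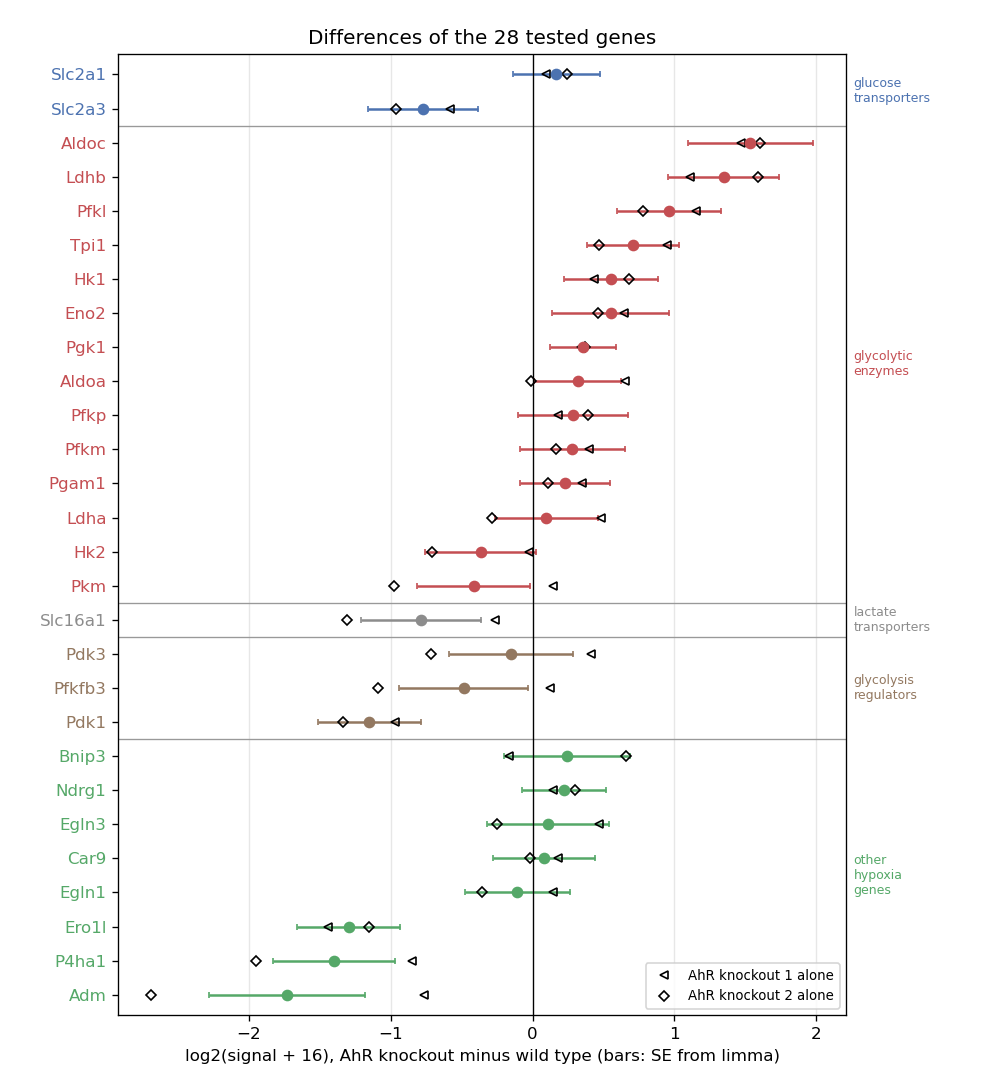
Log2 differences (AhR knockout minus wild type) of the 28 tested genes. Bars are the SE of the limma fit and open symbols the value from each AhR knockout array alone. Of the 14 glycolytic enzymes, 12 lie above 0, while Ero1l, P4ha1, Adm and Pdk1 lie below -1 and the other oxygen-response genes lie near 0.

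Lactate leaves cells through monocarboxylate carriers. Slc16a1, the carrier MCT1, read 308 and 142 in AhR knockout, against 342 and 410 in wild type. Both AhR knockout arrays were lower, AhR knockout 2 by far the most, with a log2 difference of -0.79 ± 0.42 and adjusted p = 0.32. Slc16a3, the HIF-responsive carrier MCT4, was dim on all arrays, at 19.3 and 27.3 in AhR knockout and 11.0 and 25.7 in wild type, and was not tested.

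Pyruvate dehydrogenase kinases keep pyruvate out of the mitochondria. Pdk1, the HIF-induced kinase, read 433 and 333 in AhR knockout, against 822 and 907 in wild type. The arrays of each genotype lay close together and the groups were well apart, with means of 383 ± 70.7 in AhR knockout and 864 ± 60.1 in wild type (SD, n = 2 each). The log2 difference was -1.15 ± 0.36, a 2.22-fold lower level, with adjusted p = 0.13, and the dimmer Pdk1 probe set differed by -0.86. Pdk3 overlapped, with 388 and 169 in AhR knockout and 325 and 255 in wild type. Pdk2 was too dim to test, at 40.3 and 23.2 in AhR knockout and 31.9 and 5.13 in wild type. Pfkfb3, which makes the activator of phosphofructokinase, read 189 and 72.5 in AhR knockout, against 199 and 149 in wild type, and its groups overlapped.

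The oxygen-response genes outside glycolysis divided into some that read lower and some near 0. Of 8 tested, 4 had a positive and 4 a negative difference, with a median of -0.01. None had both AhR knockout arrays above both wild-type arrays, and 3 had both below, against shares of 28.7% and 26.7% over all tested genes. These 3 were Ero1l, P4ha1 and Adm. The other 5 had overlapping groups and differences between -0.11 and 0.25. With so few genes the median says little of the list, since its largest differences all lie on one side.

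Ero1l, named Ero1a in RefSeq, encodes the endoplasmic reticulum oxidase that helps proteins form disulfide bonds and is induced by low oxygen. It read 520 and 640 in AhR knockout, against 1339 and 1550 in wild type. The means were 580 ± 85.4 in AhR knockout and 1444 ± 149 in wild type (SD, n = 2 each), and both AhR knockout arrays were under every wild-type value. The log2 difference was -1.30 ± 0.36, a 2.46-fold lower level, with adjusted p = 0.10, the smallest of the list. All 3 Ero1l probe sets had this direction, with differences from -1.30 to -1.13.

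P4ha1, a subunit of the prolyl hydroxylase that stabilises collagen, read 285 and 125 in AhR knockout, against 514 and 540 in wild type. The wild-type arrays were nearly equal and both AhR knockout arrays were lower. The log2 difference was -1.40 ± 0.43, a 2.64-fold lower level, with adjusted p = 0.12. A P4ha1 probe set under the signal filter differed by 0.30, so the direction rests on the brighter one. Adm, the vasodilator peptide adrenomedullin, read 2012 and 520 in AhR knockout, against 3374 and 3504 in wild type. Its log2 difference of -1.73 ± 0.55 was the largest in size of the list, 3.31-fold, with adjusted p = 0.14. AhR knockout 1 alone gave -0.77 for Adm and AhR knockout 2 alone gave -2.69. Adrenomedullin is also made in quantity by endothelium, and the endothelial markers ran the same way, at a median of -1.05 for AhR knockout 1 alone and of -2.56 for AhR knockout 2 alone. AhR knockout 2 is also the array with the high Gapdh ratio of 11.9. With that ratio as a covariate Adm differed by -1.02 and P4ha1 by -0.998. The part of endothelial cells in these differences was not tested.

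The remaining oxygen-response genes did not separate the genotypes. Bnip3, which directs the removal of mitochondria, read 509 and 915 in AhR knockout, against 424 and 775 in wild type, so the spread within each genotype was wider than the difference of 0.25 ± 0.44. Egln1, the main oxygen sensor that marks HIF-1 alpha for destruction, read 1521 and 1072 in AhR knockout, against 1475 and 1284 in wild type, a log2 difference of -0.11, while a dimmer Egln1 probe set differed by -0.79. Egln3, a HIF-induced sensor of the same family, read 915 and 549 in AhR knockout, against 493 and 876 in wild type, again with overlapping groups. An Egln3 probe set under the signal filter read 76.5 and 77.6 in AhR knockout, against 37.4 and 39.5 in wild type, a log2 difference of 0.77 with the groups apart. Car9, a surface carbonic anhydrase that rises steeply in hypoxia, was low on every array, at 102 and 87.4 in AhR knockout and 87.7 and 89.5 in wild type. Its difference was 0.08 ± 0.36 with adjusted p = 0.91.

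Ndrg1, a hypoxia- and stress-responsive protein, read 6615 and 7353 in AhR knockout, against 6928 and 5162 in wild type, a log2 difference of 0.22 ± 0.29. Its 5 probe sets did not run one way and spread from -1.06 to 0.62. The probe set at -1.06 read 1836 and 398 in AhR knockout, against 2288 and 1426 in wild type, so that its low value was in AhR knockout 2. No direction can be given for Ndrg1 from these probe sets.

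**Figure D3:**
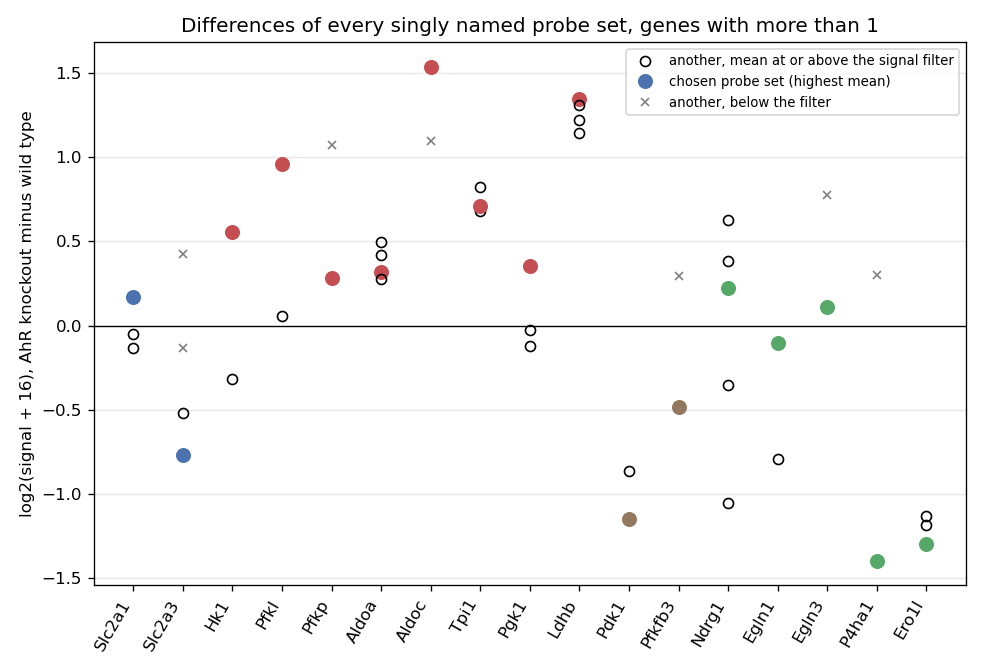
Log2 differences, AhR knockout minus wild type, of every singly named probe set of the 17 genes that have more than 1, with the chosen probe set filled, others above the signal filter as open circles and dimmer ones as crosses. Ldhb, Tpi1, Aldoa and Ero1l have probe sets close together, and those of Ndrg1 spread from -1.06 to 0.62.

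Set beside each other, the glycolytic enzymes had a median of 0.34 and the other oxygen-response genes a median of -0.01, a gap of 0.35 on the log2 scale. From AhR knockout 1 alone the gap was 0.47, and from AhR knockout 2 alone 0.68. Its size rested on the wild-type arrays as well, with 0.78 without wild type 1 and 0.30 without wild type 2. The lists were named with results known, so the gap is a description without a test. Among the enzymes 8 of 14 had their lowest array in wild type 2, which was lowest for 35.0% of all tested genes, and among the other oxygen-response genes AhR knockout 2 was lowest for 4 of 8. Over the 28 tested members AhR knockout 2 was the lowest array for 12, or 42.9%, against 30.4% of all tested genes.

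**Figure D4:**
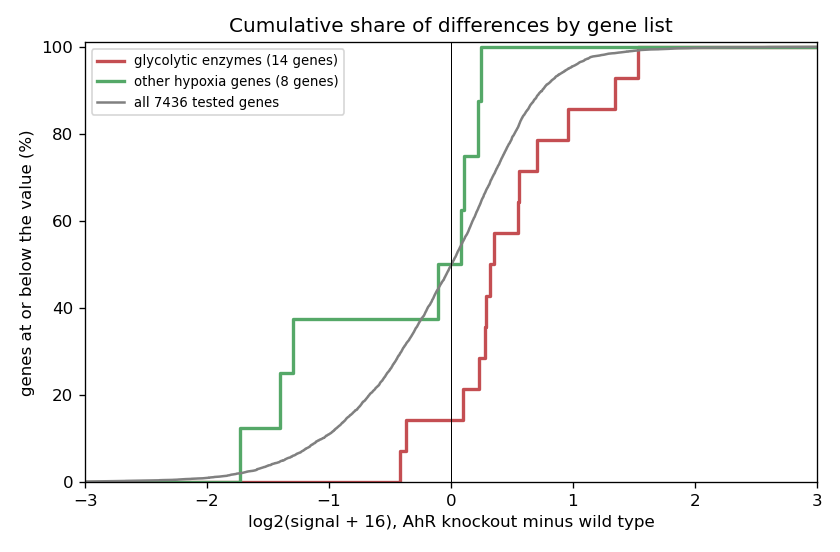
Cumulative share of genes, in percent, at or below each log2 difference, AhR knockout minus wild type, for 14 glycolytic enzymes, 8 other oxygen-response genes and all 7436 tested genes. The enzyme curve runs to the right of the curve of all genes, with a median of 0.34, and the curve of the other oxygen-response genes has 3 genes at -1.30 or lower and the rest near 0.

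Leaving out either AhR knockout array changed which members passed. Without AhR knockout 1, 8 members passed in limma, against 18.3% of all tested genes, namely Aldoc and Ldhb upward and Pkm, Slc16a1, Pdk1, Adm, P4ha1 and Ero1l downward. Without AhR knockout 2, 5 members passed, against 13.9% of all tested genes, namely Pfkl, Aldoc, Tpi1 and Ldhb upward and Ero1l downward. Both fits use the same wild-type arrays, so passing in both is no independent agreement. Without AhR knockout 1 and without AhR knockout 2 in turn, the adjusted p was 0.0028 and 0.0085 for Aldoc, 1.521e-04 and 0.016 for Ldhb, and 0.044 and 0.0088 for Ero1l. Such a fit keeps a single AhR knockout array and takes it to vary as the wild-type arrays do. With either wild-type array left out, 0 members passed. With the Gapdh 3′ to 5′ ratio as a covariate, which leaves 1 residual degree of freedom, 8 members passed, against 21.6% of all tested genes, namely Pfkl, Aldoc, Tpi1 and Ldhb upward and Pdk1, Adm, P4ha1 and Ero1l downward.

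The HIF factors themselves were read from a further list of 13 pathway genes, of which 7 were tested and 0 passed. Hif1a, the oxygen-regulated subunit of HIF-1, read 1894 and 2780 in AhR knockout, against 4573 and 6545 in wild type. Both AhR knockout arrays were lower, with a log2 difference of -1.25 ± 0.35 and adjusted p = 0.10. Hif3a, a related subunit with forms that restrain HIF-1, had the opposite sign, at 164 and 287 in AhR knockout and 49.9 and 39.6 in wild type. Its log2 difference was 1.95 ± 0.40 with adjusted p = 0.055. Elob, part of the complex that tags HIF-1 alpha for destruction, differed by 0.60. Epas1, which encodes HIF-2 alpha, and Arnt, the partner of both HIF-1 alpha and AhR, were below the signal filter. Arnt read 46.4 and 39.5 in AhR knockout, against 52.0 and 59.3 in wild type.

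Further known HIF targets included more lower than higher readings. Of 24 tested, 8 had a positive and 16 a negative difference, with a median of -0.25, and 0 passed in limma. An unadjusted p under 0.05 was reached by 1 of them with a positive and 7 with a negative difference, where the shares over all tested genes were 7.68% and 12.9%. AhR knockout 1 alone gave a median of -0.16 for the list, and AhR knockout 2, the array with the high Gapdh ratio and the lowest endothelial sum, gave -0.49. Both AhR knockout arrays were below both wild-type arrays for 8 of them, or 33.3%, against 26.7% of all tested genes. Gbe1, the glycogen branching enzyme, read 135 and 63.7 in AhR knockout, against 246 and 375 in wild type, a log2 difference of -1.55 ± 0.43 with adjusted p = 0.10. Wsb1, a ubiquitin ligase subunit, differed by -1.39, and Rora, a nuclear receptor of the clock, by -1.15. Vegfa, the main vessel growth factor and a classical HIF target, was dim, at 36.4 and 53.4 in AhR knockout and 26.0 and 47.7 in wild type.

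Glucose can also enter the pentose phosphate pathway, which supplies NADPH and ribose. Of its 6 tested genes, 4 had a positive and 2 a negative difference, 3 had both AhR knockout arrays above both wild-type arrays (28.7% of all tested genes), and 0 passed. Tkt, transketolase, read 14041 and 19716 in AhR knockout, against 11585 and 8886 in wild type, a log2 difference of 0.71 ± 0.27 with adjusted p = 0.19. Pgls and Pgd, enzymes of the branch that makes NADPH, differed by 0.94 and 0.53. Among 5 tested isoforms and regulators of glycolysis outside the member list, 3 had a positive and 2 a negative difference and 0 passed. They included Pdk4 at -0.51, Eno3 at 0.53 and Bpgm at 0.40.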

How the data were processed

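Gene expression was measured on 1-colour Affymetrix arrays, 2 AhR knockout and 2 wild-type. The deposited values are linear signal intensity, computed with MAS5 (no version stated) per the submitters' processing notes. Every array has a trimmed mean between 500.2 and 500.3 over the middle 96% of probe sets, so a shift shared by most transcripts is scaled away. Samples were grouped by title. No column was left over.

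Of 22690 probe sets, 64 are controls, 20380 name a single gene, 691 several and 1555 none in the platform annotation. Symbols were updated through gene identifiers to RefSeq (GRCm38.p6), which held 20351. A gene is represented by its probe set with the highest mean, 12393 in all. Signals were converted to log2(signal + 16), which understates folds of dim genes, and the 60% of genes with the highest mean were tested (lowest mean 81.1). Groups were compared with limma 3.58.1 (lmFit, eBayes with trend) under R 4.3.3. P-values were adjusted by Benjamini-Hochberg over all tested genes, with a threshold of 0.05. With 2 arrays a group, the smallest p of an exact permutation test is 0.333. The fit was tested on simulated data first. Members and lists were chosen with earlier results of these data known, so no p over a list is given. The text names all members, Ahr, Hif1a, Epas1, Arnt, Vegfa and the 3 genes with the smallest p of each further list, and the 3 brightest of each marker list. Sox17 is named as well because it passed the threshold. Figures used matplotlib 3.10.9 in Python 3.11.15. Alternatives covered scaling, pseudocount, filter, probe sets, the variance model, the title number as a block, the Gapdh control ratio as a covariate, the threshold and each array left out.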

Additional observations from a re-analysis of the deposited data

How the results depend on the processing

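The count of all genes passing, 71 in the reported setting, was 25 with quantile normalization, 43 with a pseudocount of 1, 1 without the signal filter, 20 with the top 40% tested, 37 when probe sets of a gene were averaged, 1604 with the Gapdh ratio as covariate, 364 at an adjusted p under 0.10, and between 20 and 1360 with an array left out. Of the members, 0 passed in the reported setting, 8 with the covariate (21.6% of all tested genes passing), and between 0 and 8 with an array left out. The title number as a replicate block gave 1406 genes (18.9%) and 7 members, namely Pfkl, Aldoc, Ldhb, Pdk1, Adm, P4ha1 and Ero1l. The labels do not say that equal numbers share a litter or day, and the deviations of same-numbered arrays correlated at r = 0.35 across genes. With 2 pairs this does not settle a pairing. The block and the covariate leave 1 residual degree of freedom. The cause of these moves was not tested.

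The median of the oxygen-response genes outside glycolysis was -0.24 with the mean of probe sets, between -0.30 and -0.013 with an array left out, and just above 0 with quantile normalization (0.0025) and equal medians (0.07). Over all tested genes the median was 0.0684 with quantile normalization and 0.0909 with equal medians, against 0.0055 in the reported setting. The gap between the oxygen-response genes and the enzymes lay between 0.30 and 0.78 with an array left out. The counts that follow were chosen after the data were seen. Enzymes with groups apart upward numbered between 7 and 12 of 14 in those fits (33.0% to 46.6% of all tested genes). They numbered 5 of 14 when probe sets were averaged (27.8%). Apart downward were 3 enzymes without AhR knockout 1 (42.5% of all tested genes) and 1 without wild type 2 (33.5%). In the fits with an array left out, the oxygen-response genes apart downward numbered between 3 and 5 of 8 (33.5% to 42.5%). Those apart upward numbered between 1 and 3 there (33.0% to 46.6%). With no array left out, those apart upward numbered 2 with equal medians (32.5%), 1 with quantile normalization (32.3%) and 1 with averaged probe sets (27.8%). Of 30 members, 16 kept a single sign in every alternative. The changes of variance model, of filter and the title-number block leave each difference as it is, so they could not change a sign. With the mean of probe sets Slc2a1 turned to -0.0051 and Ndrg1 to -0.035. With the covariate Pkm turned to 0.0015, Pdk3 to 0.28, Bnip3 to -0.11 and Egln1 to 0.089. With an array left out, sign changes gave ranges of -0.064 to 0.63 for Pfkp, -0.014 to 0.65 for Aldoa, -0.98 to 0.15 for Pkm, -0.28 to 0.48 for Ldha, -0.091 to 0.53 for Slc16a3, -0.029 to 1.15 for Pdk2, -0.72 to 0.41 for Pdk3, -1.09 to 0.12 for Pfkfb3, -0.18 to 0.67 for Bnip3, -0.36 to 0.14 for Egln1, -0.30 to 0.51 for Egln3 and -0.017 to 0.18 for Car9. Signals near background, as for Slc16a3, Pdk2 and Car9, limit what can be read from them.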

Other observations

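Pyruvate dehydrogenase and the citrate cycle take up the pyruvate that glycolysis makes. Of 18 tested genes of this list, 9 had a positive and 9 a negative difference, with a median of 0.03, and 0 passed in limma. An unadjusted p under 0.05 was reached by 1 with a positive and 2 with a negative difference, where the shares over all tested genes were 7.68% and 12.9%. Dld, the dehydrogenase shared by the large keto-acid complexes, read 150 and 187 in AhR knockout, against 329 and 676 in wild type, a log2 difference of -1.41 ± 0.42 with adjusted p = 0.12. Dlat, the acetyl-transferring part of pyruvate dehydrogenase, differed by -0.86 and Idh3g, a subunit of isocitrate dehydrogenase, by 0.75. All 3 tested genes of gluconeogenesis had small positive differences, with Pcx at 0.46, G6pc3 at 0.28 and Pck2 at 0.27, and 0 passed.

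Gapdh and Bnip3l could not be read from a probe set of their own. The brightest Gapdh probe set, shared with other symbols, read 14126 and 11010 in AhR knockout, against 12999 and 11555 in wild type, a log2 difference of 0.03. The 3′ control probe set of Gapdh read 13247 and 11667 in AhR knockout, against 12329 and 10965 in wild type, while the 5′ one read 6685 and 978 in AhR knockout, against 5789 and 3843 in wild type. The 3 probe sets shared by Bnip3l and its pseudogene differed by 0.25, -0.24 and -0.03.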
